A study of Mus musculus with 2 samples.

Results

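The expression of 10 genes of the WNT pathway was examined in fibro-adipogenic progenitors (FAPs), a stromal population of muscle able to give rise to adipocytes. The 10 genes were taken by symbol from the 44291 genes of the series and comprise 3 ligands (Wnt5a, Wnt5b and Wnt11), 1 agonist (Rspo3), 4 secreted antagonists (Sfrp1, Sfrp2, Dkk2 and Dkk3) and 2 target genes (Axin2 and Lef1). Primary wild-type mouse FAPs received either platelet-rich plasma (PRP), a platelet concentrate from human blood, or vehicle as control. Both cultures then went into adipogenic induction medium that held insulin (10 μg/ml), dexamethasone (0.25 μM), the phosphodiesterase inhibitor IBMX (0.5 mM) and serum (20% FBS). There was 1 RNA-seq library for each, called PRP and control after the labels, although the study's text speaks of exosomes isolated from PRP. Per the study's methods FAPs are taken from hind-limb muscle by cell sorting. They give the mice as C57BL/6, bought at a few weeks of age, and the time of harvest for these libraries is not given in the sources used here.

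WNT ligands are secreted lipid-modified proteins that bind Frizzled receptors together with the co-receptors LRP5 and LRP6, or with ROR and RYK receptors in a branch that does not use beta-catenin. In the canonical branch, beta-catenin escapes destruction, enters the nucleus and acts with TCF/LEF factors on target genes such as Axin2. Secreted frizzled-related proteins capture the ligands, Dickkopf proteins mostly act on the co-receptors, and R-spondins keep Frizzled receptors at the cell surface. In mesenchymal progenitors, canonical WNT signaling is known as a brake on adipogenesis.

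Levels are given as the deposited FPKM. Its formula is not given and was taken here as reads scaled to exon length and to the total of reads assigned to genes. The totals recovered from these values were 40120843 (PRP) and 34139741 (control) assigned reads. With them all 10 genes could be turned back into whole reads in both libraries. Ratios are PRP over control, with an exact Clopper-Pearson 95% binomial interval computed on read pairs. These intervals cover counting error only. With 1 library per group there is no replicate check of any difference, so no p-value is given and every comparison is between these libraries.

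The antagonist Sfrp1 and the target Lef1 marked the ends of the range in both libraries. In the control library the order was Sfrp1 (41.2 FPKM), Dkk3 (22.02), Rspo3 (11.97), Dkk2 (11.2), Wnt5a (2.03), Sfrp2 (0.898), Wnt5b (0.331), Axin2 (0.255), Wnt11 (0.0850) and Lef1 (0.0333). In the PRP library Rspo3 (6.23 FPKM), Dkk3 (6.11) and Dkk2 (5.40) lay next to each other below Sfrp1 (29.3). Their exact Poisson intervals overlapped there, at 5.62 to 6.88, 5.54 to 6.73 and 4.88 to 5.95 FPKM, and the order of these neighbors is not settled by these intervals. In the control library Dkk3 stood apart from Rspo3, at 20.8 to 23.3 against 11.1 to 12.9 FPKM, while Rspo3 and Dkk2 (10.4 to 12.1) overlapped. Summed over the 4 antagonists, the level was 41.0 FPKM with PRP and 75.3 FPKM in the control, a ratio of 0.544. Summed over the 3 ligands it was 2.83 and 2.45 FPKM, a ratio of 1.16. Hence the antagonist sum was 14.5 times the sum of these 3 ligands with PRP and 30.7 times in the control. The antagonist sum counts Dkk3 (6.11 FPKM with PRP and 22.02 FPKM in the control), whose effect on WNT signaling depends on the cell. Over all 19 WNT ligands listed below, the sum was lower with PRP (5.07 against 6.09 FPKM, ratio 0.832). The higher ligand sum and both quotients therefore apply to these 3 ligands only, and no interval was computed for them.

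**Figure D1:**
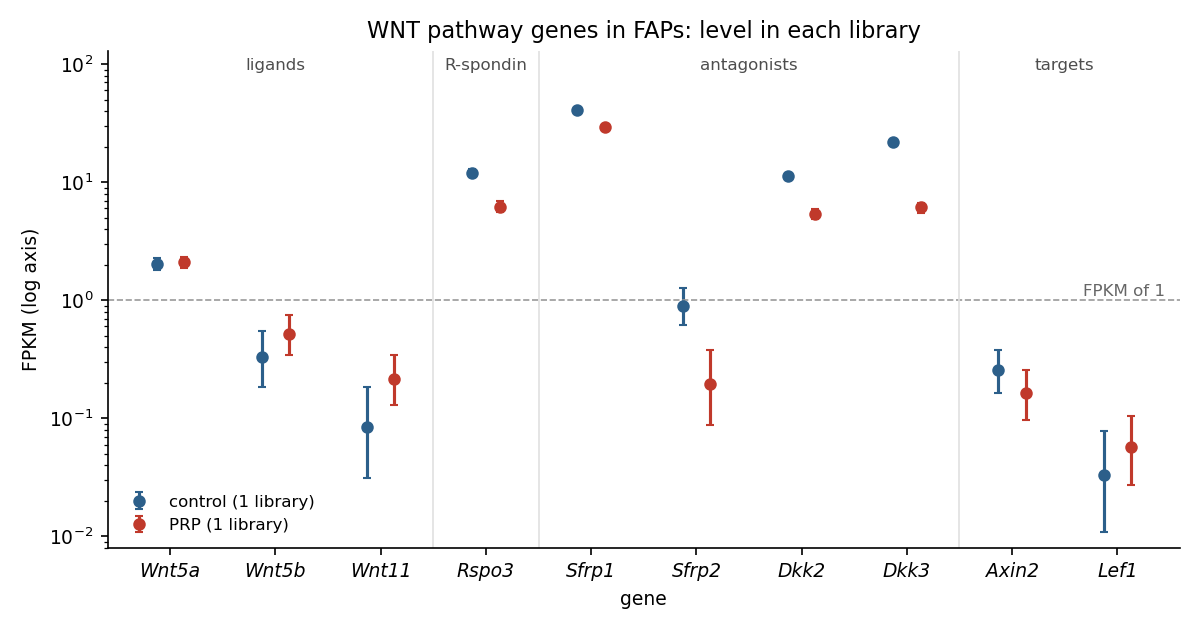
FPKM of the 10 genes on a log axis in the control library (blue) and the PRP library (red), with exact Poisson 95% intervals of the read pairs as bars. Rspo3, Sfrp1, Sfrp2, Dkk2 and Dkk3 lie lower in the PRP library (for Dkk3, 6.11 against 22.02 FPKM), while both points of Wnt5a (2.10 and 2.03 FPKM) coincide within their bars.

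On the log2(FPKM + 1) scale Dkk3 had the largest difference of the 10 genes, while the scarce Sfrp2 had a lower FPKM ratio (0.219). Dkk3 (ENSMUSG00000030772, chromosome 7, 112116017 to 112159057, minus strand, GRCm38) encodes a divergent Dickkopf protein whose effect on WNT signaling depends on the cell. Its level was 6.11 FPKM with PRP and 22.02 FPKM in the control, from 824 and 2525 reads. The ratio was 0.278 (95% interval 0.248 to 0.311), which is 3.60-fold lower. On the log2(FPKM + 1) scale the difference was -1.69, and ranked 13th from the lowest among the 13401 genes whose mean FPKM reached 1.

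Dkk2 (ENSMUSG00000028031, chromosome 3, 132085292 to 132180304, plus strand), which binds the co-receptors LRP5 and LRP6, had 5.40 FPKM in the PRP library against 11.2 FPKM in the control library (802 and 1418 reads). The ratio was 0.481 (0.425 to 0.545). The log2 difference of -0.93 fell short of 2-fold because the pseudocount of 1 shrinks it, and with a pseudocount of 0.1 it was -1.04. The interval of Dkk2 lay wholly above that of Dkk3, so the family members differed from each other by more than counting error. Dkk1 of the same family had 0 and 2 reads, too few for a comparison.

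Sfrp1 (ENSMUSG00000031548, chromosome 8, 23411502 to 23449632, plus strand) encodes a frizzled-related protein that binds WNT ligands outside the cell. It was the most abundant of the 10 genes, at 29.3 FPKM with PRP and 41.2 FPKM in the control (5134 and 6143 reads). The ratio was 0.711 (0.675 to 0.750) and the log2 difference -0.48. Sfrp1 therefore made up 58.2% of the summed FPKM of the 10 genes with PRP and 45.7% in the control, whereas Dkk3 made up 12.2% and 24.5%. The level of Sfrp1 was 4.79 times that of Dkk3 with PRP and 1.87 times in the control.

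Sfrp2 (ENSMUSG00000027996, chromosome 3, 83766321 to 83774316, plus strand), the paralog of Sfrp1, was scarce, at 0.197 FPKM with PRP and 0.898 FPKM in the control. The 17 and 66 reads gave a ratio of 0.219 (0.0900 to 0.476). This interval overlapped that of Dkk3 and lay below that of Sfrp1. A stretch of 16.1% of the exon length of Sfrp2 is shared with Gm26771 on the other strand, which was at 0 and 0.0469 FPKM.

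RefSeq promoters (build GRCm38.p6, from 250 bases before to 50 bases after a start site) were at hand for 6 of the 10 genes, namely Wnt5b, Wnt11, Sfrp2, Dkk2, Axin2 and Lef1, with 12 start sites in all. They were searched on both strands for 4 cores of the kind bound by TCF/LEF factors. The first core was CTTTGAT. The second had the letters CTTTGTT in its place. The other cores were written as CTTTGAA in the third case and as CTTTGTA in the last. Because the 4 differ in their last letters, no position was counted under more than 1 of them. The core of the TATA box was searched as TATAAA in the same windows. The promoters of Dkk2 (chr3:132085042-132085341, plus strand) and Sfrp2 (chr3:83766071-83766370, plus strand) are shown because both genes were lower in the PRP library, with matches in capitals.

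Dkk2: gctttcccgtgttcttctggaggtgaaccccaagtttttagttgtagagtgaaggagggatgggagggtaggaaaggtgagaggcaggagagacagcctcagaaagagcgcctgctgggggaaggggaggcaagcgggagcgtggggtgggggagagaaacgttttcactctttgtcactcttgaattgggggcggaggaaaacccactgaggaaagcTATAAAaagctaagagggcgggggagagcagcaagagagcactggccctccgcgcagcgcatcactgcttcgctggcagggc

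Sfrp2: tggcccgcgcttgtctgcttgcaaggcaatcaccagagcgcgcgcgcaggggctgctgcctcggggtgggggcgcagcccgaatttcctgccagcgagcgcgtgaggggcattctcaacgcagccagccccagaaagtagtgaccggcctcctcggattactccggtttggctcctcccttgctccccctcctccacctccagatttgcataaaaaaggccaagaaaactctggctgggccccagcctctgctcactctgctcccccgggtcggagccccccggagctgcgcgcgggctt

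Neither of these windows held any of the 4 TCF/LEF cores, which occurred in 16.9% of the 32851 promoters in the table. Dkk2 had a TATAAA whose first base lies at -32 from the start site, and 13.6% of all promoters held these letters on either strand. Sfrp2 had none. The windows differed in base composition, with 66.0% GC and 22 CpG in Sfrp2 and 57.7% GC and 11 CpG in Dkk2, against a median of 52.7% GC over all promoters.

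The R-spondin, the only potentiator of the pathway among the 10 genes, was lower as well. Rspo3 (ENSMUSG00000019880, chromosome 10, 29452416 to 29535867, minus strand) acts through LGR receptors and the ubiquitin ligases ZNRF3 and RNF43. Its level was 6.23 FPKM in the PRP library against 11.97 FPKM in the control library (772 and 1263 reads). The ratio was 0.520 (0.457 to 0.591) and the log2 difference -0.84. The interval overlapped that of Dkk2. Gm48159, which shares 13.1% of the exon length of Rspo3 on the other strand, had 0.403 and 0.947 FPKM, and whether reads were counted by strand is not stated.

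**Figure D2:**
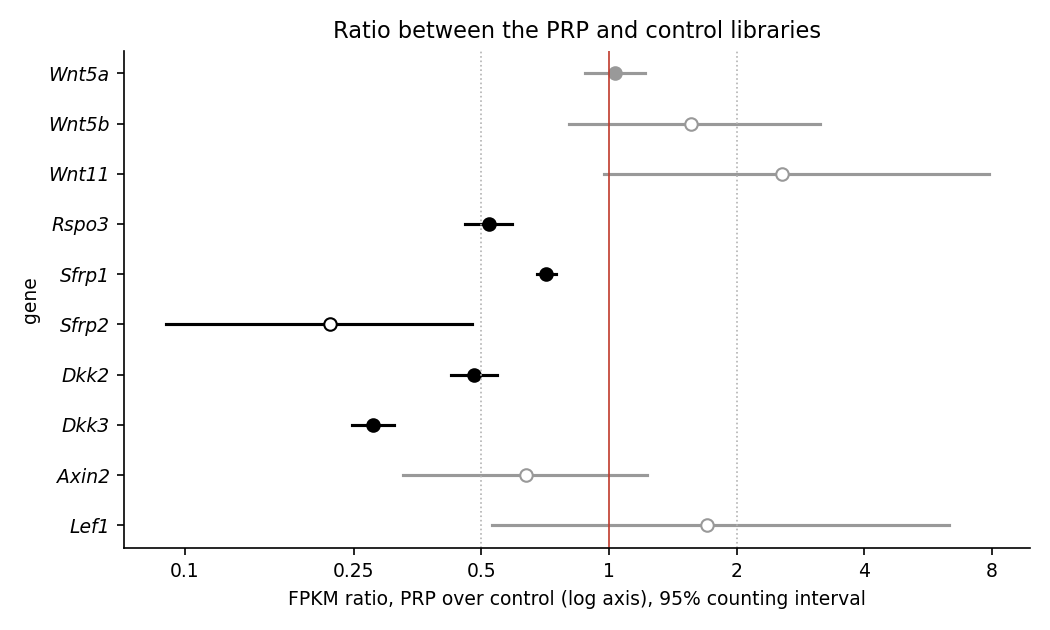
FPKM ratio of PRP over control on a log axis for each of the 10 genes, with exact 95% binomial intervals. Filled points mark the 5 genes whose mean FPKM reached 1, black marks the 5 genes whose interval leaves out 1, and dotted lines mark ratios of 0.5 and 2; Dkk3 (0.278) and Sfrp2 (0.219) lie farthest to the left.

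None of the 3 ligands showed a detectable difference at this depth. Wnt5a (ENSMUSG00000021994, chromosome 14, 28504750 to 28527448, plus strand), which signals mainly without beta-catenin, had 2.10 FPKM with PRP and 2.03 FPKM in the control (658 and 543 reads). The ratio was 1.03 and its interval of 0.875 to 1.22 left out any change of 1.5-fold. Its paralog Wnt5b (ENSMUSG00000030170, chromosome 6, 119432531 to 119544347, minus strand) had 0.517 against 0.331 FPKM, a ratio of 1.56 with an interval of 0.803 to 3.15. Wnt11 (ENSMUSG00000015957, chromosome 7, 98835112 to 98855195, plus strand), a ligand of planar polarity signaling, had 0.217 against 0.0850 FPKM. Only 36 and 12 reads stood behind Wnt11, and the interval of its ratio of 2.55 ran from 0.971 to 7.86. Computed on single reads in place of read pairs, this interval left out 1.

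Promoter windows of these weakly expressed ligands held the core CTTTGAT, which occurred in 3.73% of all promoters. They are shown because they held a core, with the matches in capitals. The first start site of Wnt11 (chr7:98834862-98835161, plus strand) has it on the minus strand, from -51 to -45, followed by TATAAA from -29 to -24. The third start site of Wnt5b (chr6:119449337-119449636, minus strand) has it on the gene's own strand, from -71 to -65.

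Wnt11: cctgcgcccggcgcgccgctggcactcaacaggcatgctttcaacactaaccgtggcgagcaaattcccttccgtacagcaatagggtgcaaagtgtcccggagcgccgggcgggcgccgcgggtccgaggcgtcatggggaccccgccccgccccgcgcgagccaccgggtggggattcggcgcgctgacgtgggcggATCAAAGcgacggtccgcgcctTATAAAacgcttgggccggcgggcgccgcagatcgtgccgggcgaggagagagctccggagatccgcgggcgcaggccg

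Wnt5b: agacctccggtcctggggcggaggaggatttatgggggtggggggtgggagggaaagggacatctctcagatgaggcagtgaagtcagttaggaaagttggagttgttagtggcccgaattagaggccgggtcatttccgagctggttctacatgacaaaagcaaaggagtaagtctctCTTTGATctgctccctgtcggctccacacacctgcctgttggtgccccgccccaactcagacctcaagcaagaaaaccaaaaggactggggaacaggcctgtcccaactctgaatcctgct

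The other windows of these ligands, 1 of Wnt11 and 2 of Wnt5b, held none of the 4 cores. Of all 12 windows of the 6 genes, 3 held any of the 4 cores, where 16.9% of all promoters did. A contrast between genes with and without a core was not tested. Presence of the letters describes the window and does not show that a factor binds there.

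Both target genes were near the lower end of detection. Axin2 (ENSMUSG00000000142, chromosome 11, 108920349 to 108950783, plus strand) encodes a scaffold of the beta-catenin destruction complex and is a common readout of canonical signaling. It had 0.163 FPKM with PRP and 0.255 FPKM in the control (36 and 48 reads), and the interval of the ratio of 0.638 ran from 0.326 to 1.23. Lef1 (ENSMUSG00000027985, chromosome 3, 131110471 to 131224356, plus strand), a TCF/LEF transcription factor, had 0.0567 and 0.0333 FPKM from 20 and 10 reads, with a ratio of 1.70 (0.530 to 6.35). At this depth a difference in either gene was not detectable. The Axin2 promoter (chr11:108920099-108920398, plus strand), shown as that of a known target, held none of the 4 cores and no TATAAA in this window. Of the 4 Lef1 start sites, 1 held CTTTGTA, from -147 to -141 on the minus strand.

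Axin2: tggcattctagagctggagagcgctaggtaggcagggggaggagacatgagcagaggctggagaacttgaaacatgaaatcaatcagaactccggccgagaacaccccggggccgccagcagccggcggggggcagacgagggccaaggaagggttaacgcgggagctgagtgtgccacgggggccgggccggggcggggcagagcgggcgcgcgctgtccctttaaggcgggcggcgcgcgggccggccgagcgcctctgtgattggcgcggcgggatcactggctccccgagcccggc

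Against all genes, the 5 members whose mean FPKM reached 1 (Wnt5a, Sfrp1, Dkk2, Dkk3 and Rspo3) were compared by count. Of these 5, 4 were below 0 on the log2 scale, where 49.1% of all 13401 genes were, and Wnt5a was slightly above. On this log2(FPKM + 1) scale, at least 2-fold lower was 1 of them, Dkk3, against 0.828% of all genes. In either direction 2.83% of all genes differed at least 2-fold. At least 1.5-fold lower were 3 of them, Dkk3, Dkk2 and Rspo3, against 4.57% of all genes, with 10.7% differing by this much in either direction. The median log2 difference of the 5 was -0.84, and that of all genes was 0.01, with 95% of genes between -0.74 and 0.89. The interval lay below 1 for 4 of the 5, against 26.1% of the 12367 such genes with whole reads. The other 5 of the 10 genes were under the filter, and of these the interval lay below 1 for Sfrp2. Over the 14031 genes under the filter that had whole reads, it lay below 1 for 3.12% and above 1 for 4.47%, and 84.7% of these genes had fewer reads in all than Sfrp2. No interval of the 10 lay above 1. The share of genes past the filter whose interval lay above 1 was not computed.

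**Figure D3:**
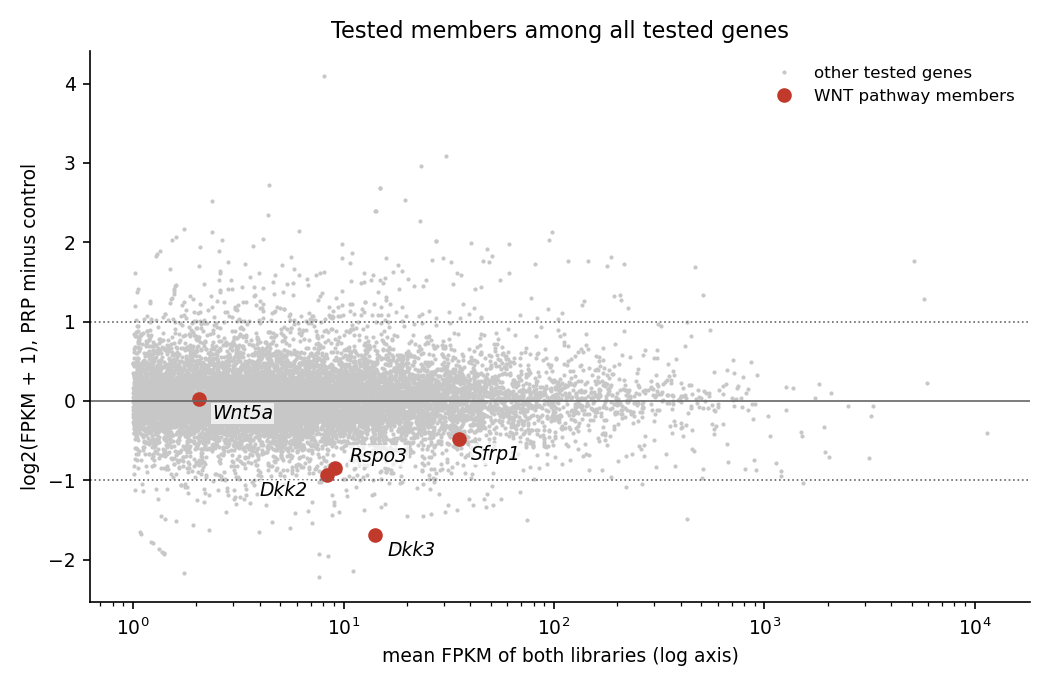
Difference in log2(FPKM + 1), PRP minus control, against the mean FPKM (log axis) for the 5 WNT genes whose mean FPKM reached 1 (red) and for all other genes past this filter (grey). Dotted lines mark 2-fold; Dkk3 (-1.69) lies beyond the lower one, Dkk2 (-0.93) and Rspo3 (-0.84) lie just inside it, and Wnt5a (0.03) lies at the middle.

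The study names the human microRNAs let-7f-5p and miR-16-5p as cargo of the PRP exosomes, so the longest 3'UTR of each of the 10 genes was searched for the match to the seed (bases 2 to 8). The mature sequences, from the mouse entries of RefSeq (GRCm38.p6), carry the seed in capitals.

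let-7f-5p: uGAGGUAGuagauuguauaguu

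miR-16-5p: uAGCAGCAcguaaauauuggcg

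Dkk3 was the only one of the 10 genes with the let-7 match CTACCTC, which was present in 11.2% of 10365 genes that had an annotated 3'UTR and a mean FPKM of 1 or more. The miR-16 match TGCTGCT was present in 5 of the 10 (Wnt11, Dkk2, Dkk3, Axin2 and Rspo3) and in 27.1% of those genes. The 3'UTRs of the 10 genes ran from 867 to 4508 bases, with a median of 1810 against 1315 over those genes, and the letters searched grow with this length. Among the 4 genes past the filter that were lower in the PRP library, Dkk2, Dkk3 and Rspo3 had a miR-16 match and Sfrp1, with 3144 bases of 3'UTR, had neither. Under the filter, Sfrp2 was also lower (ratio 0.219) and had neither match. Wnt11 (ratio 2.55) and Axin2 (ratio 0.638), whose intervals included 1, had a miR-16 match. A link between match and direction was not tested. The sites of Dkk2, Dkk3 and Rspo3 are printed in GENCODE M21 transcript sense with 11 bases on each side and the match in capitals, at bases 470 and 425 of the 3'UTR of Dkk3, base 1702 of that of Dkk2 and base 32 of that of Rspo3. In Dkk2 a second match starts at base 1705 and overlaps the first. A match of letters does not show that the microRNA acts on the gene.

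Dkk3 let-7 site: tgtttcagctcCTACCTCactgtcagcac

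Dkk3 miR-16 site: cacaagagctaTGCTGCTctgtggcctcc

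Dkk2 miR-16 site: aaggctaaaccTGCTGCTgcttaagctct

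Rspo3 miR-16 site: tagactcatgaTGCTGCTatctcaaccag

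To place the 10 genes in the pathway, 9 lists of WNT genes by role were compared, with 121 genes in all. Apart from the 10, 58 genes of these lists passed this filter, and the median of their log2 differences was -0.15. Lower with PRP were 38 of them (65.5%) and higher 20, where 49.1% of all genes past the filter were lower. This share, and the 26.1% of such genes with whole reads whose interval lay below 1, are also the background of the list counts below. On the log2(FPKM + 1) scale, 4 of the 58 were at least 1.5-fold lower (Wnt16, Fzd1, Rspo2 and Ccnd1), against 4.57% of all genes. Higher by this much were 2 (Myc and Cd44), against 6.15%. Both counts are near these shares. By FPKM ratio without the pseudocount, Btrc (0.581), Ptk7 (0.631) and Lgr4 (0.635) were also past 1.5-fold lower, and no further gene was past it on the higher side. The share of all genes by this ratio was not computed.

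The lists of R-spondins and of secreted antagonists had the lowest medians. The place of the antagonists depended on the scale, since with a pseudocount of 0.1 their median was -0.55 and that of the ligands, which rests on Wnt5a and Wnt16, was -0.62. Of 18 listed antagonists, Dkk4 and Sost were not analysed here and 5 passed the filter. These 5 were lower, with intervals below 1 and a median of -0.48, namely Dkk3, Dkk2, Sfrp1, Igfbp4 (4.84 against 7.13 FPKM, ratio 0.679) and Kremen1 (2.78 against 3.62 FPKM, ratio 0.768). IGFBP4 is an IGF-binding protein that can also block WNT receptors. KREMEN1 is a receptor for Dickkopf proteins and is not itself secreted, although its gene was counted in this list. In the list of R-spondins and receptor turnover all 3 genes past the filter were lower, with a median of -0.84. Without the filter, which brings in genes with few reads, the medians were -0.04 for the antagonists and -0.07 for the R-spondin list, and the receptors lay lower (-0.19). Rspo2, the paralog of Rspo3, had 0.7996 FPKM in the PRP library against 2.73 FPKM in the control library, a ratio of 0.293 (0.225 to 0.378). The R-spondin receptor gene Lgr4 had 1.97 against 3.10 FPKM, a ratio of 0.635 (0.533 to 0.755).

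Among the 19 ligands, 10 were above 0 in both libraries, 6 in a single library and 3 in neither. Only Wnt5a and Wnt16 passed the filter. Wnt16 was higher than Wnt5a in the control library (2.61 against 2.03 FPKM) and lower in the PRP library (1.01 against 2.10 FPKM). The ratio of Wnt16 was 0.386 (0.297 to 0.499), whose interval does not meet that of Wnt5a. Summed over all 19 ligands the level was 5.07 FPKM with PRP and 6.09 FPKM in the control. For ligand secretion, 4 of 5 genes were lower, by small amounts (median -0.14). The cargo receptor gene Tmed2 had 170 against 176.5 FPKM (ratio 0.964), and the retromer gene Vps35 had 30.6 against 29.9 FPKM (ratio 1.03).

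Receptor genes were mostly lower, 7 of the 10 past the filter, with a median of -0.28. Fzd7 was level, at 10.20 against 10.19 FPKM (interval of the ratio 0.909 to 1.10). Fzd2 had 9.29 against 13.4 FPKM (ratio 0.696, interval 0.628 to 0.771) and Fzd1 had 1.63 against 2.96 FPKM (ratio 0.550, interval 0.440 to 0.685). Fzd5 was the only receptor gene whose interval lay above 1 (ratio 1.23, interval 1.02 to 1.499). The frizzled genes thus did not share 1 direction.

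Intracellular genes of the pathway went in both directions. In the list of beta-catenin turnover 8 of 13 genes were lower, with a median of -0.10, and the interval lay below 1 for 6, above 1 for 3 and included 1 for 4. The lowest ratios were those of Btrc (1.03 against 1.78 FPKM, ratio 0.581, interval 0.506 to 0.667), whose product marks beta-catenin for degradation, of the tankyrase gene Tnks (3.90 against 5.61 FPKM, ratio 0.696) and of the Dishevelled gene Dvl3 (4.94 against 6.92 FPKM, ratio 0.713). Beta-catenin itself (Ctnnb1) had 49.7 against 54.0 FPKM (ratio 0.921, interval 0.885 to 0.958), and the kinase gene Csnk1a1 had 16.2 against 16.3 FPKM (ratio 0.994). Axin1, the constitutive relative of Axin2, had 17.04 FPKM with PRP and 13.6 FPKM in the control, a ratio of 1.26 whose interval (1.15 to 1.37) lay above 1. Of the TCF/LEF factors and cofactors 7 of 10 were lower, with a median of -0.17, among them Bcl9l (10.99 against 16.4 FPKM, ratio 0.668) and Chd8 (8.44 against 9.77 FPKM, ratio 0.864). The 3 higher genes were the corepressor genes Tle1 (ratio 1.23, interval 1.09 to 1.39) and Tle4 (ratio 1.34, interval 1.035 to 1.735), and Ctnnbip1. The interval of Ctnnbip1 included 1 (ratio 1.12, interval 0.941 to 1.33). Lef1 was not the main family member by level, since Tcf7l1 had 4.19 against 6.02 FPKM and Tcf7l2 had 2.32 against 3.46 FPKM. Genes of the branch without beta-catenin had a median of 0.05, with Daam1 (11.1 against 10.6 FPKM) and Scrib (6.30 against 6.11 FPKM) within counting error. Over the 7 genes of this branch past the filter, the interval included 1 for 4. It lay below 1 for 2, Nfatc3 (ratio 0.8125) and Nfatc4 (ratio 0.732), and above 1 for 1, Prickle2 (ratio 1.275).

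Target genes went in both directions, with 5 of the 8 past the filter lower and a median of -0.15. The matricellular gene Ccn5 had 36.7 against 51.5 FPKM (ratio 0.713, interval 0.664 to 0.765) and the cyclin gene Ccnd1 had 28.6 against 43.7 FPKM (ratio 0.655, interval 0.623 to 0.689). Higher in the PRP library were Myc (10.4 against 5.83 FPKM, ratio 1.79, interval 1.54 to 2.07) and the hyaluronan receptor gene Cd44 (33.2 against 19.1 FPKM, ratio 1.74, interval 1.65 to 1.83). Ccnd1, Myc and Cd44 are also controlled by other pathways. Axin2 and Lef1 of this list were below the filter.

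Markers of the cells were set beside these values. The FAP genes Pdgfra (19.8 against 28.0 FPKM) and Ly6a (59.9 against 66.4 FPKM) were present in both libraries. All 8 FAP and matrix markers past the filter were lower with PRP (median log2 difference -0.63), and their list summed to 335.9 against 570 FPKM. The 9th, Lum, was at 0.0815 and 0.0718 FPKM. Adipocyte markers had a median of 0.10 over 6 genes and summed to 137.7 against 143.2 FPKM. Pparg (8.69 against 6.55 FPKM, ratio 1.33) and Fabp4 (40.65 against 33.6 FPKM, ratio 1.21) were higher, with intervals above 1. Lpl (67.4 against 83.3 FPKM, ratio 0.8095) was lower, with an interval below 1, and 3 of the 6 intervals included 1. Of the endothelial markers 2 of 6 passed the filter and both were higher, and the list summed to 9.59 against 5.46 FPKM, while Pecam1 was at 0.188 and 0.0470 FPKM. Leukocyte markers summed to 5.36 against 3.01 FPKM, mostly Cd68, with Ptprc at 0.0109 and 0.0192 FPKM. Platelet markers summed to 2.90 against 2.54 FPKM, with Ppbp and Gp9 at 0 in both. Of the myogenic markers, Myf5 was not analysed here, Pax7 and Myog were at 0 in both and the list summed to 18.01 against 14.6 FPKM, mostly Acta1. Mitochondrially encoded genes held 2.06% of the summed FPKM with PRP and 3.70% in the control. The part of these shifts in the differences of the WNT genes was not tested. In such bulk samples fewer cells of a type and less RNA per cell cannot be told apart.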

How the data were processed

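Total RNA (TRIzol) was made into stranded mRNA libraries, per the labels. According to the submitters' processing notes and the study's methods, reads were trimmed with fastp 0.23.4, aligned to mm10 with STAR 2.5.3a and assigned to genes with featureCounts. What the authors deposited is FPKM, in 1 file per library. The annotation release, the FPKM formula and the strand setting are not given in the sources used here.

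Gene identifiers were matched to GENCODE M21 (GRCm38), which held 41464 of the 44291 genes (93.6%). With its summed exon lengths, 26398 of 28152 genes above 0 (93.8%) gave whole numbers of reads, to within 0.001, in each library. Even numbers made up 79.3% (PRP) and 80.3% (control) of genes with 1 to 8 reads, so that reads were divided by 2 for the intervals. The intervals take no account of PCR duplicates. Log2 differences used log2(FPKM + 1), which understates low genes, for genes whose mean FPKM reached 1. No count model was run, and with 1 library per group no test could be made.

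Named are the 10 genes and, from each list, the 2 genes with the highest mean FPKM. All genes past the filter and changed at least 1.5-fold on the log2(FPKM + 1) scale are named as well. Genes named beside these (Dkk1, Igfbp4, Kremen1, Fzd5, Ptk7, Axin1, Btrc, Tnks, Dvl3, Tcf7l1, Tcf7l2, Tle1, Tle3, Tle4, Ctnnbip1, Prickle2, Vangl1, Nfatc3, Nfatc4 and the low genes of the closing section) and single cell markers were chosen after their values were seen. The 10 genes and the lists were chosen with earlier results of these data known. Alternatives were pseudocounts of 0.1 and 5, no filter or one at 5 FPKM, rescaling to a common sum with or without mitochondrial and the 50 top genes, centring, fold thresholds of 1.5 and 4, and undivided reads. Rescaling of the PRP library to the sum of the control, which keeps the scale, was added after the data were seen. The TCF/LEF, TATA and seed searches were added after the values were seen. Python 3.11.15, NumPy 2.4.6, pandas 2.3.3, SciPy 1.17.1 and matplotlib 3.10.9 were used, and the procedures were checked on simulated data.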

Additional observations from a re-analysis of the deposited data

How the results depend on the processing

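Of the 5 members past the filter, none changed sign in the 35 values recomputed with another pseudocount, rescaling or centring. The other 5 members were recomputed only without the filter, which leaves their values as they are. Another pseudocount or rescaling was not tried for them and could move their values. The number of members changed at least 2-fold, 1 as reported, was 3 at the 1.5-fold threshold, 0 at the 4-fold threshold, and 2 (Dkk3 and Dkk2) with a pseudocount of 0.1 or with either rescaling to a common sum. The number of members higher in the PRP library, 1 as reported, was 0 with the filter at 5 FPKM, which drops Wnt5a, and 4 without a filter, which adds Wnt5b, Wnt11 and Lef1. The log2 difference ranged from -1.84 to -1.28 for Dkk3, from -1.05 to -0.64 for Dkk2, from -0.95 to -0.60 for Rspo3 and from -0.52 to -0.43 for Sfrp1. Members whose counting interval left out 1 numbered 5, or 6 on undivided reads, with Wnt11 added.

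Over all genes, 379 changed at least 2-fold. The number was 739 and 113 with pseudocounts of 0.1 and 5, 210 with the filter at 5 FPKM, 596 with FPKM rescaled to 1 common sum, 638 when mitochondrial and top genes were left out of that sum, 1436 at the 1.5-fold threshold and 26 at the 4-fold threshold. Rescaling to a common sum also raises every FPKM against the pseudocount of 1. With the PRP library brought to the sum of the control instead, an alternative chosen after seeing the data, 376 genes and 1 member passed 2-fold, with or without mitochondrial and top genes in the sum. Of 80 recomputed list medians, 13 moved by over 0.1 and 2 changed sign, the ligand list (0.02 at most) and that of beta-catenin turnover (0.02 at most). No paired analysis was possible because the groups hold a single library each. Depth limits Wnt5b, Wnt11, Axin2 and Lef1, which had 55 reads or fewer.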

Other observations

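WNT genes under a mean FPKM of 1 were left out of the lists' medians, and 51 such genes are not among the 10. Of these, 42 had a counting interval on whole reads, which lay below 1 for 7 and above 1 for 1. Over all 14031 genes under this filter with whole reads it lay below 1 for 3.12% and above 1 for 4.47%, but 51.8% of them had too few reads for any interval to leave out 1, so the shares are not matched. The 8 genes were chosen here by their intervals and no correction for their number was made. Lgr5, an R-spondin receptor and canonical target, had 0.165 FPKM in the PRP library against 0.739 FPKM in the control library (68 and 259 reads, ratio 0.223, interval 0.148 to 0.328). This lay near the ratio of Rspo2 (0.293). Ror2 (0.517 against 0.911 FPKM, ratio 0.567) and Ror1 (0.389 against 0.610 FPKM, ratio 0.638), receptors for WNT5A, were lower while Wnt5a itself was level. The frizzled-related gene Frzb had 14 and 34 reads (ratio 0.350, interval 0.123 to 0.889). The planar polarity genes Prickle1 (ratio 0.536) and Vangl2 (ratio 0.710) and the corepressor gene Tle2 (ratio 0.463) were also lower. Their paralogs past the filter did not share this direction. Prickle2 (ratio 1.275), Tle1 (ratio 1.23) and Tle4 (ratio 1.34) were higher with intervals above 1. The intervals of Vangl1 (ratio 1.04) and Tle3 (ratio 0.994) included 1. Among the 8 genes chosen by their intervals, Wnt2b, a canonical ligand, was the exception. It had 0.148 against 0.0349 FPKM from 25 and 5 reads (ratio 4.26, interval 1.07 to 28.7).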
